A study of Mus musculus with 6 samples.

Results

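B-cell surface and identity genes were examined in the aorta of mice deficient in eNOS, the nitric oxide synthase of the endothelium, whose product relaxes vessels, and in the aorta of wild-type mice. The set was chosen by function and holds 9 genes (Ms4a1, Cd79a, Cd79b, Cd22, Blk, Pax5, Cr2, Fcer2a and Bank1) of 22184 genes with a probe set of their own. Each of the 9 was read by 1 probe set. All 9 passed the filter on dim genes and were among the 18008 genes tested.

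B cells are the lymphocytes that make antibody. Each carries a membrane antibody as its antigen receptor, which signals through the paired chains CD79A and CD79B, and co-receptors and inhibitory receptors set the strength of that signal. In and around arteries, B cells are known from the adventitia, from lymphoid clusters in perivascular fat and from lymph nodes beside the vessel.

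The data were 6 Affymetrix arrays, 1 for each sample, with values on the log2 scale. The eNOS-deficient samples carry the title numbers 11, 15 and 19 and the wild-type samples 2, 3 and 5. Both genotypes were labelled as aorta and described as age-matched. The sources used here do not give the age itself, the strain, the targeted allele, the sex or the portion of aorta or surrounding fat taken. Nor do they say that each sample is a separate animal. The p-values therefore describe the spread between these 6 samples, which may be technical.

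Array medians ran from 5.55 to 5.68, Pearson's r between arrays over probe sets from 0.947 to 0.983, and no pair of arrays shared more than 0.109% of its values. The number of arrays limits the precision. Nos3, the targeted gene, stood at 7.13, 7.39 and 7.27 on eNOS-deficient 11, 15 and 19 and at 7.99, 7.88 and 7.36 on wild type 2, 3 and 5, and did not pass the test (limma adjusted p = 0.399). Since the position of its probes relative to the deleted part is not given, this neither checks nor contradicts the labels. The smooth muscle actin gene Acta2 lay between 12.3 and 12.80 on the 6 arrays and the endothelial cadherin gene Cdh5 between 9.75 and 11.02, so the markers of a vessel wall were present throughout. Ucp1, the marker of brown fat, lay between 12.91 and 13.12.

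In these aortas the B-cell genes set 1 array apart, and the genotypes overlapped at all 9. On eNOS-deficient 11 all 9 genes had their lowest value, from 1.13 log2 (Pax5) to 3.27 log2 (Cr2) under the next lowest array. On eNOS-deficient 15 and 19 they stood at wild-type levels, with a mean over the 9 genes that was 0.0 and 0.24 log2 above that of wild type, against -2.35 on eNOS-deficient 11. Wild type 2, 3 and 5 lay at -0.24, 0.36 and -0.12. In bulk tissue, fewer B cells and less of each RNA per cell cannot be told apart.

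Ms4a1 encodes CD20, a membrane protein of mature B cells. Its signal was 5.24, 7.95 and 8.29 log2 on eNOS-deficient 11, 15 and 19 and 7.98, 8.65 and 8.34 on wild type 2, 3 and 5. Apart from eNOS-deficient 11, the eNOS-deficient arrays lay inside or just under the wild-type range. The group means were 7.16 ± 1.67 (SD, n = 3) and 8.32 ± 0.337, a difference of -1.16 log2 (95% interval -2.89 to 0.57) that did not pass (limma adjusted p = 0.582).

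Cd79a and Cd79b encode the signalling chains of the B-cell receptor. Cd79a measured 7.51, 9.61 and 9.64 on eNOS-deficient 11, 15 and 19, and 8.95, 9.73 and 9.27 on wild type 2, 3 and 5. Cd79b measured 7.41, 9.70 and 9.91, and 9.02, 9.95 and 9.87. For both chains eNOS-deficient 15 and 19 lay inside the wild-type range and eNOS-deficient 11 lay below it, by 1.44 log2 for Cd79a and 1.61 for Cd79b. The differences between genotypes were -0.39 (interval -1.71 to 0.92, limma adjusted p = 0.834) and -0.60 (interval -2.11 to 0.90, limma adjusted p = 0.764).

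Blk, a Src-family kinase of B cells that acts just below the receptor, measured 5.26, 7.29 and 7.51 in eNOS-deficient aorta and 7.2, 7.75 and 7.24 in wild type. Bank1, a scaffold protein of the same pathway, measured 7.21, 9.32 and 9.54, and 9.06, 9.80 and 9.14. In both genes eNOS-deficient 15 and 19 lay within the wild-type values, and eNOS-deficient 11 lay 1.94 and 1.85 log2 under the lowest of the other 5 arrays. The Blk difference was -0.71 (standard error 0.555, limma adjusted p = 0.663) and the Bank1 difference -0.64 (standard error 0.585, limma adjusted p = 0.719).

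Cd22 encodes a sialic acid-binding receptor that dampens receptor signalling. It measured 6.07, 8.21 and 8.75 on eNOS-deficient 11, 15 and 19 and 8.45, 8.98 and 8.31 on wild type 2, 3 and 5. Here eNOS-deficient 15 lay slightly under the wild-type range and eNOS-deficient 19 inside it. The difference was -0.90 (interval -2.38 to 0.58, limma adjusted p = 0.628).

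Pax5, the transcription factor that commits a cell to the B lineage and holds it there, had the smallest gap. It measured 5.65, 6.87 and 6.96 in eNOS-deficient aorta and 6.99, 7.52 and 6.78 in wild type, a gap of 1.13 log2, or 2.18-fold, between eNOS-deficient 11 and the lowest of the other arrays. Its difference between genotypes was -0.60 (interval -1.46 to 0.26, limma adjusted p = 0.564).

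Cr2 encodes complement receptor 2 (CD21), which on B cells binds complement-tagged antigen, and Fcer2a encodes CD23, the low-affinity receptor for IgE. Follicular dendritic cells, the stromal cells of B-cell follicles, also carry both proteins. Cr2 measured 4.19, 7.99 and 8.22 on eNOS-deficient 11, 15 and 19 and 7.55, 7.76 and 7.45 on wild type 2, 3 and 5. Fcer2a measured 5.40, 8.12 and 8.38, and 7.69, 8.16 and 7.60. For Cr2, eNOS-deficient 11 lay below and the other eNOS-deficient arrays above every wild-type array, while for Fcer2a eNOS-deficient 15 was inside the wild-type range and eNOS-deficient 19 above it. The Cr2 difference was -0.79 (interval -3.08 to 1.5, limma adjusted p = 0.803) and the Fcer2a difference -0.52 (interval -2.22 to 1.18, limma adjusted p = 0.830). The lowest Cr2 value lies under the level used as the dim filter, 4.38 log2, so the size of its 3.27 log2 gap is uncertain. On eNOS-deficient 11, Ms4a1 (5.24), Blk (5.26) and Fcer2a (5.40) were also under the array medians of 5.55 to 5.68. Pax5, at 5.65, was level with them. Low signal may therefore limit the gaps of these genes too.

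**Figure D1:**
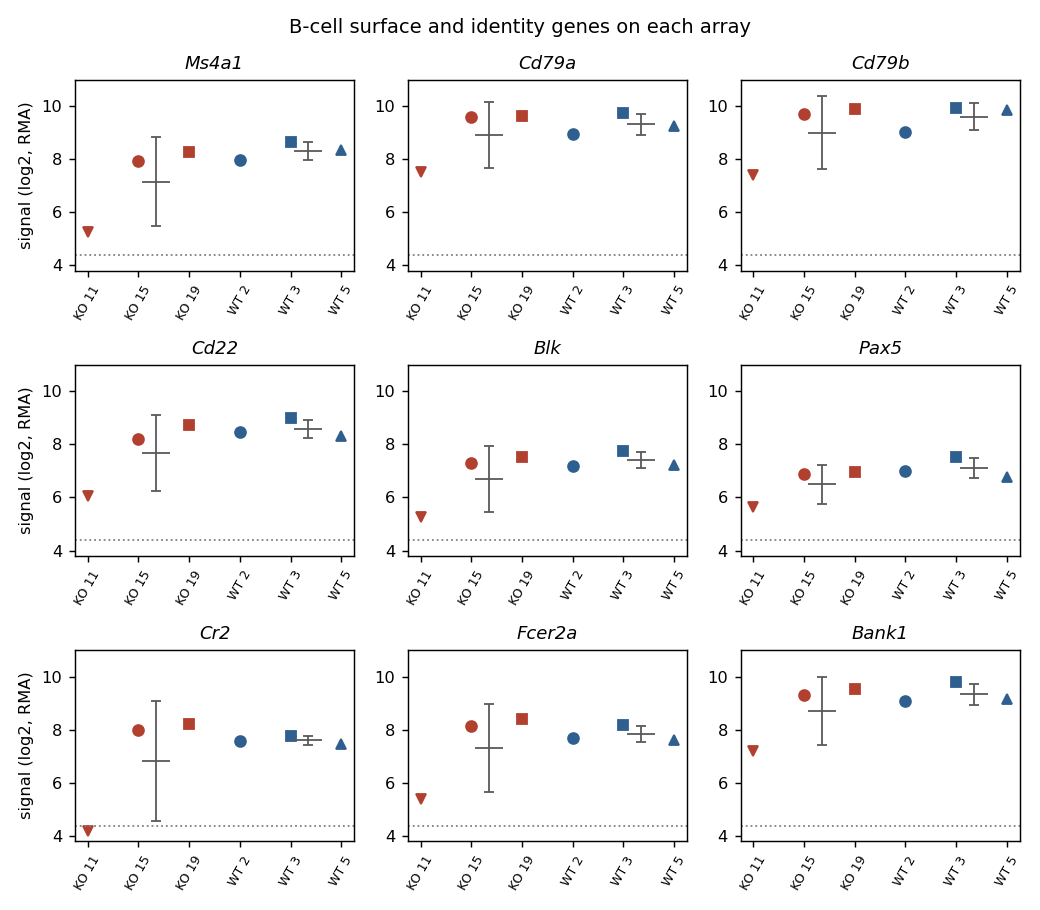
Signal (log2, RMA) of each of the 9 genes on the 6 arrays, eNOS-deficient (KO, red) and wild type (WT, blue), with the group mean and SD (n = 3) as a grey bar and the dim filter level of 4.38 as a dotted line. In every panel KO 11 is the lowest point, between 4.19 and 7.51, while KO 15 and KO 19 stand among or close to the wild-type arrays.

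Promoter sequence of the members was described as well. A link between these sequences and the signals on the arrays was not tested. The RefSeq promoter table (GRCm38.p6) held 8 windows for 6 of the 9 genes, each with 250 bases before and 50 after a gene's start. Searched on both strands were the octamer ATGCAAAT bound by Oct factors, the EBF1 palindrome CCCNNGGG, the E-box CAGCTG and the Ets core AGGAAG. EBF1 and Ets factors such as PU.1 are regulators of B-lineage genes. The 100 bases before the start are shown for Cd79a (chr7:24897397-24897496, plus strand), Cd22 (chr7:30879029-30879128, minus strand), Bank1 (chr3:136326067-136326166, minus strand) and the middle of 3 starts of Fcer2a (chr8:3690862-3690961, minus strand), whose windows hold a match in that stretch. They are written from 5′ to 3′ along the gene, with each match in capitals.
Cd79a: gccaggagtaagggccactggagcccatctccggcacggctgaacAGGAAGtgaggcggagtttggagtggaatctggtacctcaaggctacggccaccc
Cd22: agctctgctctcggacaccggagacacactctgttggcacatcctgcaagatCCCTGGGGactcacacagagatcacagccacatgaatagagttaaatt
Bank1: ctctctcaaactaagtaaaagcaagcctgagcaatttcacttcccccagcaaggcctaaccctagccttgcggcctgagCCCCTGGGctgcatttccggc
Fcer2a: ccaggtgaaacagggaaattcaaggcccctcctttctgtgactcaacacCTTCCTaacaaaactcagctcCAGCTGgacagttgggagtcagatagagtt

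The Cd79a match is an Ets core that begins 55 bases before the start, and the Cd22 and Bank1 matches are EBF1 palindromes that begin 48 and 21 bases before it. The Fcer2a stretch holds an Ets core on the opposite strand, 51 bases before the start, and an E-box 30 bases before it. The EBF1 palindrome was in 2 of the 8 windows and in 13.7% of all 32851 promoter windows of the same length. The Ets core was in 4 of 8 and in 35.4%, the E-box in 1 of 8 (a window of Fcer2a) and in 16.3%, and the octamer in 0 of 8 and in 1.74%. These counts are descriptions of letters in the windows.

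Set against the genotype, none of the 9 genes passed an adjusted p of 0.05 in limma, where 0.0278% of all genes did, and 0 of 9 had an unadjusted p under 0.05, where 7.86% of genes did as higher and 3.72% as lower in eNOS-deficient aorta. At 0 of 9 genes were the groups of arrays free of overlap, against 19.5% of all genes. The two-sided exact permutation p ran from 0.2 (Ms4a1) to 1.0 (Cr2), where 3 samples against 3 cannot go below 0.1. All 9 differences were negative, with a median of -0.64 log2, beside 0.0356 over all genes. That sign rested on 1 array: without eNOS-deficient 11 the median was 0.0959 (0.0407 over all genes), with 6 differences positive and 3 negative. Cr2 then differed by 0.52 and Fcer2a by 0.43, while Ms4a1 differed by -0.20, Pax5 by -0.18 and Cd22 by -0.10, and again none passed. With all arrays the lower ends of the 9 intervals ran from -3.08 to -1.46 and the upper ends from 0.26 to 1.5, so the data do not show that the genotypes are alike.

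**Figure D2:**
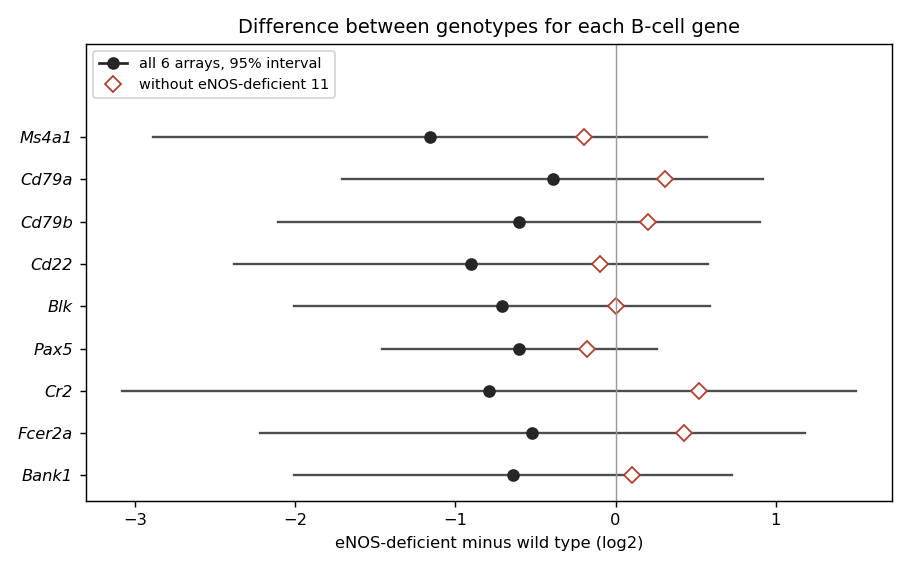
Difference between genotypes (eNOS-deficient minus wild type, log2) for each B-cell gene, with all 6 arrays as filled circles with 95% intervals from limma and without eNOS-deficient 11 as open diamonds. All 9 circles lie left of 0, all intervals cross 0, and the diamonds lie between -0.20 (Ms4a1) and 0.52 (Cr2).

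The spread within the eNOS-deficient group was wide for these genes. Its SD ran from 0.731 (Pax5) to 2.26 (Cr2), with a median of 1.39, beside a median of 0.15 over all genes tested, and 2.8% of all genes had an SD of 0.731 or more. In wild type the members' SD ran from 0.158 to 0.514, with a median of 0.355 beside 0.189 over all genes. The order of the arrays was shared as well: eNOS-deficient 19 was the highest array of its genotype for 9 of 9 members (34.4% of all genes) and wild type 3 the highest of its genotype for 9 of 9 (37.2% of all genes). The members share their libraries, so these are not 9 separate observations of a sample.

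A value on eNOS-deficient 11 at least 1 log2 under the lowest of the other 5 arrays was found at 9 of 9 members and at 0.833% of all genes (150 of 18008). A lower value of any size was found at 15.4% of all genes. This comparison sets 1 sample against the others and has no test. By this gap Cr2 was passed by 2 genes of the whole table, Ms4a1 by 6 and Pax5 by 115. Of the 150 genes, 28 belong to the lists of B-lineage genes used here, members included. A further 6 are in the T-cell list, and 112 are in no list. By list, the gap was found at 37.5% of T-cell genes, 53.8% of B-lineage transcription factors and 35.3% of other B-cell surface genes. It was found at 29.4% of receptor signalling genes, 12.5% of plasma cell genes and 0.0% of germinal centre genes. The gap was thus not confined to B-lineage genes. Of 18 immunoglobulin genes tested, 13 had a gap of at least 1 log2.

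**Figure D3:**
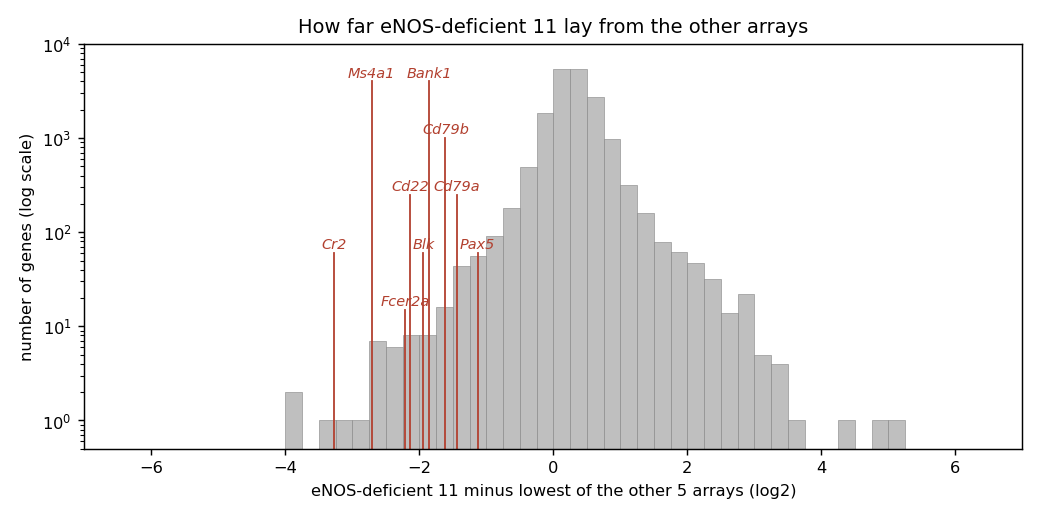
Number of genes (log axis) by the value on eNOS-deficient 11 minus the lowest of the other 5 arrays (log2), in grey for the 18008 genes tested, with the 9 members marked in red. The members lie from 1.13 (Pax5) to 3.27 (Cr2) left of 0, in the left tail of the distribution.

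Each gene's profile over the 6 arrays was set against the mean profile of the members. The measure was the root mean square distance of values centred on each gene's own mean. Genes of the lists used here, members included, were left out of this ranking, as were predicted, uncharacterised, pseudogene and small RNA names. A gene of the lists may therefore lie nearer than those named. The nearest genes in the ranking included receptors of lymphocytes. Slamf6, a receptor of lymphocytes, was nearest at 0.121 log2, with 5.24, 7.73 and 8.0 on eNOS-deficient 11, 15 and 19 and 7.74, 8.05 and 7.56 on wild type 2, 3 and 5. Stap1, an adaptor of B-cell receptor signalling, followed at 0.135 and Btla, an inhibitory receptor of B and T cells, at 0.136. The remaining 7 were H2-Eb2 (0.154), Gpr18 (0.191), H2-DMb2 (0.192), B3gnt5 (0.193), Cd52 (0.219), Rasgrp1 (0.229) and Stat4 (0.24), where H2-Eb2 and H2-DMb2 belong to the MHC class II region. The median distance over all genes was 0.943, and the members themselves lay between 0.104 (Bank1) and 0.498 (Cr2).

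Other genes of the B lineage were described from lists. Their counts at an unadjusted p under 0.05 stand beside 7.86% of all genes as higher and 3.72% as lower. B-lineage transcription factors had 0 of 13 past the test in limma, 0 at an unadjusted p under 0.05, and 7 of 13 with a gap of at least 1 log2 on eNOS-deficient 11. Their median difference was -0.411 log2, and 0.175 without that array. Ikzf3, which encodes Aiolos, measured 4.80, 7.55 and 7.89 on eNOS-deficient 11, 15 and 19 and 7.12, 7.94 and 7.46 on wild type 2, 3 and 5. Pou2af1, a coactivator of Oct factors in B cells, had the smallest p of the list (-0.80, standard error 0.418, limma adjusted p = 0.504). Its value on eNOS-deficient 15, 7.37, also lay under the wild-type range of 7.93 to 8.12, and without eNOS-deficient 11 the difference was -0.29. Ebf1, which fat and stromal cells also express, lay between 9.34 and 9.72 on all 6 arrays. Irf4 and Spi1, both also expressed by myeloid cells, differed by 0.34 and 0.31 without passing, and by 0.49 and 0.50 without eNOS-deficient 11.

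B-cell receptor signalling genes had 0 of 17 past the test in limma, with 1 gene higher and 1 lower at p under 0.05 before adjustment, and 5 of 17 had a gap of at least 1 log2 on eNOS-deficient 11. Their median difference was -0.184, and 0.211 without that array. Ptprc, the pan-leukocyte gene encoding CD45, measured 7.12, 9.57 and 10.02 in eNOS-deficient aorta and 9.35, 9.87 and 9.32 in wild type. Prkcb and Vav1, both downstream of the receptor, had gaps of 1.49 and 1.5 log2. Fcgr2b, the inhibitory Fc receptor that macrophages also carry, differed by 0.59 (limma adjusted p = 0.426), Rasgrp3 by -0.31 (adjusted p = 0.375) and the tetraspanin gene Cd81 by 0.23 (adjusted p = 0.493), and for these 3 genes the groups of arrays did not overlap, where 13.1% of all genes lay wholly higher and 6.47% wholly lower.

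Other B-cell surface genes had 0 of 17 past in limma, with 0 genes higher and 1 lower at p under 0.05 before adjustment, and eNOS-deficient 11 was the lowest array for 15 of 17, by at least 1 log2 for 6. The median difference was -0.29, and 0.0894 without that array. Fcrl5, an Fc receptor-like protein of B cells, measured 4.86, 5.56 and 5.79 on eNOS-deficient 11, 15 and 19 and 6.03, 6.37 and 5.98 on wild type 2, 3 and 5. All 3 eNOS-deficient arrays lay below all wild-type arrays for this gene (-0.72, standard error 0.249, limma adjusted p = 0.365). It was 1 of 17 genes in the list to do so, where 6.47% of all genes did. Tnfrsf13c, the receptor for the B-cell survival factor BAFF, differed by -0.42 and Siglecg, an inhibitory receptor, by -0.54, with overlap. Without eNOS-deficient 11, Fcrl5 differed by -0.45, Tnfrsf13c by -0.11 and Siglecg by -0.10.

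Germinal centre genes went in both directions, with 4 of 6 differences negative and 2 positive. Germinal centres are the sites where activated B cells divide and mutate their antibody genes. Rgs13 measured 3.73, 4.26 and 4.20 in eNOS-deficient aorta and 5.39, 5.55 and 5.59 in wild type, Mybl1 5.69, 5.47 and 6.02 against 6.82, 6.75 and 6.64, and Gcsam 4.92, 5.69 and 5.71 against 6.19, 6.06 and 5.99. In these 3 genes every eNOS-deficient array lay below every wild-type array, as 6.47% of all genes did, and 0 of the 6 genes of the list had a gap of at least 1 log2 on eNOS-deficient 11. Fas, a death receptor, lay wholly higher in eNOS-deficient aorta, at 8.19, 8.13 and 8.49 against 8.11, 8.11 and 7.74, as 13.1% of all genes did. Bcl6, a repressor needed for germinal centres that other cells also express, differed by 0.55 and S1pr2 by -0.03, with overlap. None of the 6 passed over all genes (limma adjusted p = 0.1 for Rgs13, 0.198 for Mybl1 and 0.369 for Gcsam), with 0 genes higher and 3 lower at p under 0.05 before adjustment. Without eNOS-deficient 11, Rgs13 differed by -1.28, Mybl1 by -0.99 and Gcsam by -0.38. The list's median was -0.335, and -0.195 without that array. The Rgs13 values of eNOS-deficient aorta lie under the dim filter level of 4.38, and this list was chosen with its differences known.

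Plasma cell genes had 0 of 8 past in limma, with 0 genes higher and 3 lower at p under 0.05 before adjustment. Over all genes, 7.86% were higher and 3.72% lower at that level. The median difference was -0.371, and -0.149 without eNOS-deficient 11. Jchain, which links secreted antibody, measured 6.66, 9.30 and 10.44 on eNOS-deficient 11, 15 and 19 and 10.01, 9.78 and 9.74 on wild type 2, 3 and 5. As for the members, eNOS-deficient 11 was lowest, here by 2.64 log2, and its difference of -1.04 was 0.03 without that array. Prdm1, the plasma cell regulator Blimp-1, and Fkbp11 differed by -0.39 and -0.36 without overlap, and Mzb1 by -0.61 with overlap, none past. Over all genes, 6.47% lay wholly lower in eNOS-deficient aorta. Genes of lymphocyte precursors were dim: 2 of 6 measured passed the filter, Ptcra at -0.19 and Vpreb3 at -0.05, and Rag2, Dntt, Vpreb1 and Igll1 stayed below it.

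Markers of other cells were set beside the members. T-cell genes were also lowest on eNOS-deficient 11, for 15 of 16 genes, but their means lay at -1.07, 0.52 and 0.89 log2 from the mean of wild type on eNOS-deficient 11, 15 and 19 and between -0.09 and 0.17 on the wild-type arrays. Cd3e, a chain of the T-cell receptor complex, measured 5.99, 8.64 and 9.04, and 7.47, 8.04 and 7.37 in wild type, so that eNOS-deficient 15 and 19 lay above all wild-type arrays. Relative to the T-cell mean, the members lay at -1.27, -0.52 and -0.65 on eNOS-deficient 11, 15 and 19 and at -0.16, 0.18 and -0.03 on wild type 2, 3 and 5, without overlap of the genotypes. On eNOS-deficient 15 and 19 the members themselves stood at 0.0 and 0.24, so the offset there lay in the higher T-cell mean. On eNOS-deficient 11 the T-cell mean was 5.59, near the array medians of 5.55 to 5.68, which may limit its fall. Among single genes, 19.5% had no overlap of the groups. This offset from the T-cell mean was chosen after the values were seen and has no test. The median difference of the T-cell list was 0.09, and 0.708 without eNOS-deficient 11. Of its genes 0 of 16 passed in limma and 0 had an unadjusted p under 0.05, with Zap70 at 0.46, Ubash3a at 0.37 and Cd27 at 0.33, or 0.79, 0.86 and 0.81 without eNOS-deficient 11. NK-cell genes had 0 of 5 past and 0 at an unadjusted p under 0.05, with means of -0.56, -0.02 and 0.43 on eNOS-deficient 11, 15 and 19. Prf1 differed by -0.40, Ncr1 by -0.21 and Klrk1 by 0.24, or by -0.32, -0.11 and 0.43 without eNOS-deficient 11.

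The list of follicle and lymph node stroma had 10 genes tested, among them genes that lymphocytes themselves express, such as Ltb and Lta. Of the 10, 3 had a gap of at least 1 log2 on eNOS-deficient 11 (Glycam1, Cxcl13 and Ltb). For 5 the lowest value was on another array (Madcam1, Fut7, Ltbr, Tnfsf13b and Chst4). Madcam1 stood at 5.57 on eNOS-deficient 11, within the range of 5.49 to 5.84 on the other 5 arrays. Chst4 lay between 5.28 and 5.68 on all 6 arrays and Fut7 between 4.36 and 4.90. These 3 genes were near or under the array medians of 5.55 to 5.68 throughout, so a fall on 1 array could hardly show. Glycam1, made by the high endothelial venules through which lymphocytes enter lymph nodes, measured 5.88, 11.74 and 9.86 on eNOS-deficient 11, 15 and 19 and 11.20, 10.61 and 11.16 on wild type 2, 3 and 5. Its gap of 3.98 log2 on eNOS-deficient 11 exceeded that of every member. Cxcl13, the chemokine that draws B cells into follicles, measured 9.11, 10.6 and 11.4, and 10.44, 10.63 and 10.48 in wild type. The list mean lay at -0.88, 0.16 and 0.14 from the mean of wild type on the eNOS-deficient arrays. On the wild-type arrays it lay between -0.04 and 0.04. Glycam1, at -5.11 on eNOS-deficient 11, weighs heavily in the -0.88. Fut7, Ltbr and Tnfsf13b lay above the mean of wild type on that array, by 0.16, 0.11 and 0.31. Tnfsf13b, which encodes the B-cell survival factor BAFF, differed by 0.50 without overlap (limma adjusted p = 0.362), Lta by -0.27 and Glycam1 by -1.83. Without eNOS-deficient 11 these were 0.60, -0.11 and -0.19. Of the list 0 of 10 passed in limma, with 1 gene higher and 0 lower at p under 0.05 before adjustment. At that level 7.86% of all genes were higher and 3.72% lower. The part of lymph node tissue in the members' values was not tested.

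Among non-lymphoid lists, eNOS-deficient 11 was the lowest array for dendritic cell genes, at -0.32, and was not the lowest for the means of the others described here. Macrophage genes lay at 0.58, 0.61 and 0.96 on eNOS-deficient 11, 15 and 19, so eNOS-deficient 11 was above the wild-type range of -0.13 to 0.16, and 0 of 12 passed in limma with 9 genes higher and 0 lower at p under 0.05 before adjustment (Mrc1 by 0.90, Csf1r by 0.98, Folr2 by 1.16). Dendritic cell genes had 0 of 6 past with 1 higher at an unadjusted p under 0.05 (Siglech by 0.56, Itgax by -0.44, or -0.22 without eNOS-deficient 11, Zbtb46 by -0.21). Skeletal muscle genes were highest on eNOS-deficient 11, at 1.64 above the mean of wild type against 0.15 and -0.04 on eNOS-deficient 15 and 19 and -1.0 to 0.98 on the wild-type arrays, with all 8 differences positive and 0 past. Without eNOS-deficient 11 the skeletal muscle median was 0.128 in place of 0.527, and Mylpf turned from 0.09 to -0.60. Squamous epithelium genes stood out on wild type 5, at a mean of 7.71 against 5.27 to 5.85 on the other 5 arrays. Y-linked genes had means of 7.76, 4.71 and 8.0 on eNOS-deficient 11, 15 and 19 and 3.47 to 3.63 in wild type. Y-linked signal thus lay higher on every eNOS-deficient array. On eNOS-deficient 15 it was in between (Eif2s3y 4.70, Kdm5d 4.24, Uty 5.18), so the sex of that sample is unresolved. In all differences given here genotype and the sex of the samples cannot be told apart. Fibroblast genes lay 0.48 to 0.76 above the mean of wild type on the eNOS-deficient arrays, smooth muscle genes 0.23 to 0.52 above it, endothelial genes from -0.42 to -0.07 relative to it and adipocyte genes from -0.05 to 0.12. The part of these tissues in the members' values was not tested.

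**Figure D4:**
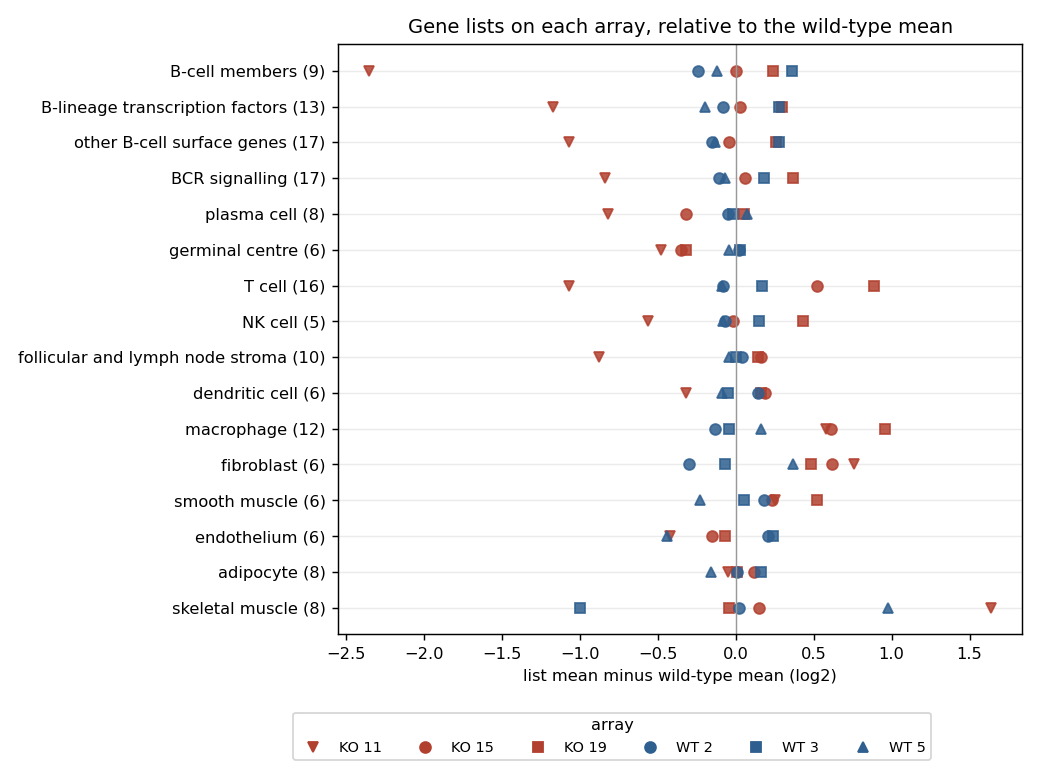
Mean of each gene list on each array minus its wild-type mean (log2), with the number of genes tested in brackets, eNOS-deficient arrays in red and wild-type arrays in blue. KO 11 stands far left for the B-cell members (-2.35), and left for B-lineage transcription factors (-1.17), other B-cell surface genes (-1.07) and T cells (-1.07). It is also left for the follicle and lymph node stroma list (-0.88), receptor signalling (-0.84) and plasma cells (-0.82). Glycam1 weighs heavily in the stroma list, at -5.11 on KO 11. KO 11 stands at the right for skeletal muscle (1.64), and beside KO 15 for macrophages (0.58 and 0.61).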

How the data were processed

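RNA from 6 aorta samples was labelled from 300 ng of total RNA and hybridised to 1 array each, per the labels' protocols. The deposited table holds log2 values, which the authors made with RMA in Affymetrix Expression Console 1.3.1, per the submitters' processing notes; they were used as deposited. The sources used here name no scan or array batch. Of 41345 probe sets, 23525 listed 1 gene symbol in the platform annotation, 1810 several and 16010 none, and IDs of 23328 matched RefSeq with 0 symbols changed.

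The brightest single-symbol probe set stood for a gene (22184 genes), and genes with a mean under the 25th percentile of probe sets, 4.38 log2, were left out. Genotypes were compared in R 4.3.3 by limma 3.58.1 (a linear model with eBayes moderation, two-sided, no covariates, Benjamini-Hochberg over 18008 genes at 0.05), and single values by exact permutation. The script was tested on simulated data. Plots used matplotlib 3.10.9. Named genes were the members, up to 3 of each of 19 other lists by smallest p, and the 10 nearest profiles outside every list. Further genes were chosen after their values were seen. For skeletal muscle (Mylpf), adipocytes (Ucp1), smooth muscle (Acta2) and endothelium (Cdh5) only such further genes are named. For squamous epithelium and fibroblasts no gene is named. Slc4a1 was the 1 erythroid gene measured (-0.38, limma adjusted p = 0.386). Members and lists were chosen with earlier results of these data known. Alternatives were another dim filter, variance prior, probe summary, scaling, array weights, threshold and each array left out.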

Additional observations from a re-analysis of the deposited data

How the results depend on the processing

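No B-cell gene passed an adjusted p of 0.05 under any setting run; over settings their limma adjusted p ran from 0.42 to 0.999. Of 117 member differences recomputed, 111 kept their sign and 6 turned, all 6 on leaving out eNOS-deficient 11. Many of the 111 could not have turned. Each member has 1 probe set and passed the filters, so dim filter, variance prior and probe averaging left its difference as it was. With each array left out in turn the median ran from -1.07 to 0.0959. The differences ran from -0.75 to 0.31 for Cd79a, -1.05 to 0.20 for Cd79b, -1.12 to 0.0028 for Blk, -1.50 to 0.52 for Cr2, -1.06 to 0.43 for Fcer2a and -1.07 to 0.10 for Bank1. Array weights brought the members' median to -0.34 from -0.64. Over all genes the count past the threshold was 5, and 3 without the dim filter, 2 with probe sets averaged for each gene, 2 with quantile normalization repeated, 119 with array weights, 8 at a threshold of 0.1 and 0 to 6 with an array left out. As an alternative added after seeing the data, leaving out eNOS-deficient 11 turned the median of 6 other lists to positive: receptor signalling (from -0.184 to 0.211), transcription factors (-0.411 to 0.175), other B-cell surface genes (-0.29 to 0.0894), NK cells (-0.0478 to 0.372), stroma (-0.112 to 0.0849) and dendritic cells (-0.061 to 0.0222). The cause was not tested. No paired analysis was possible because the genotypes share no replicate number. Values near the dim level, as for Cr2 on eNOS-deficient 11, bound what can be said of size.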
